A study of Mus musculus with 24 samples.

Results

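The 10 genes described here encode integrin subunits whose receptors bind the matrix laid down in liver fibrosis: 5 alpha subunits (Itgav, Itga1, Itga5, Itga8 and Itga11) and 5 beta subunits (Itgb1, Itgb3, Itgb5, Itgb6 and Itgb8). They were chosen by symbol, without use of their values in the rule, and are 10 of 56205 genes in a count table of whole mouse liver. All 10 were among the 17913 genes tested. An integrin is a membrane receptor made of 1 alpha and 1 beta chain that joins the matrix outside a cell to its actin cytoskeleton. The subunits Itga1 and Itga11 pair with Itgb1 to bind collagen, Itga5 with Itgb1 binds fibronectin, and Itga8 with Itgb1 binds nephronectin and other ligands with an arginine-glycine-aspartate sequence. Itgav can pair with each of the 5 beta subunits. Its receptors bind vitronectin, osteopontin and fibronectin, and some of them, above all those with Itgb6 or Itgb8, release TGF-beta from its latent complex, which is one reason why they are studied in fibrosis.

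C57BL/6J mice aged 8 to 10 weeks were given the FFD, a diet high in palm oil fat with fructose and cholesterol, or its control diet for 20 weeks. Each diet had 12 libraries, and the design gives 6 mice per diet and sex, but no label says from which sex a library came. Poly(A) RNA of whole liver was sequenced, so that a lower level from fewer cells of a type and one from less RNA per cell cannot be told apart. The comparison addresses which of these receptor genes differ between livers under a fibrosing diet and control livers, and nothing in the labels names a batch.

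Depth ranged from 14468418 to 22112552 counts per library. The libraries fell into 2 sets of 6 per diet by Xist, an RNA of the inactive X chromosome: numbers 1 to 6 of each diet held 2664 to 6285 Xist counts and 0 counts of the Y-linked Ddx3y, and numbers 7 to 12 held 0 to 3 Xist counts and 448 to 1016 Ddx3y counts. They are called Xist-high and Xist-low libraries below. The labelled tissue was borne out by its markers, with Alb at 24214 CPM (counts scaled to a common library size, with TMM factors) or more in each library. Of the 10 hepatocyte markers 8 fell and 0 rose under the FFD, and the markers of activated stellate cells (8 of 10 rose), monocyte-derived macrophages (9 of 10 rose, Fabp5 fell), cholangiocytes (6 of 9 rose), quiescent stellate cells (5 of 10 rose), resident macrophages (3 of 8 rose), endothelial cells (2 of 10 rose), platelets (1 of 7 rose) and T cells (0 of 9) followed.

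Several libraries stood apart. FFD library 3 had the highest summed level of platelet markers, 23.3 CPM against at most 7.87 CPM in any other library, and the lowest Col1a1 level of the FFD group (34.4 CPM). FFD library 9 had the highest sum of cholangiocyte markers, 515 CPM. FFD libraries 9 to 12, all Xist-low, had higher sums than the 8 other FFD libraries for cholangiocytes (209 to 515 against 103 to 160 CPM), activated stellate cells (523 to 624 against 215 to 514 CPM), monocyte-derived macrophages (697 to 1025 against 213 to 571 CPM) and T cells (10.1 to 12.6 against 3.79 to 9.12 CPM), and a lower sum for endothelial cells (202 to 288 against 301 to 451 CPM). In control libraries the sums were 3.33 to 13.5 CPM for T cells and 191 to 438 CPM for endothelial cells. There FFD libraries 9 to 12 lay within the control range, and for cholangiocytes they overlapped with it (96.6 to 266 CPM). These 4 libraries were picked out after their integrin levels had been seen, and the main comparisons are given with and without them.

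Under the FFD, 3 of the 10 genes were higher and 0 were lower. They were Itgb5, Itga8, and Itga11, a collagen receptor subunit of fibroblasts that was near the limit of detection. Calls came from the quasi-likelihood test of edgeR, with p-values adjusted by Benjamini-Hochberg over all genes tested, and needed both an adjusted p no higher than 0.01 and a log2 fold change beyond 0.5 in either direction. Over all 17913 genes, 13.2% were called higher and 4.99% lower. At an unadjusted p under 0.05 edgeR had 6 of the 10 genes higher and 1, Itgav, lower, where 24.1% of all genes were higher and 23.7% lower at that threshold. DESeq2 called 4 higher and 0 lower (2639 and 974 over all genes), and limma-voom called 2 higher and 0 lower (2325 and 877 over all genes). The 3 rises ran from 1.63-fold to 2.97-fold. Without FFD libraries 9 to 12 only Itgb5 was called, where 1403 of the 17913 genes tested were called higher. Markers of several cell types were higher beside these genes. The list of activated stellate cells (8 of 10 rose, but not Acta2 and Tagln) summed to 215 to 624 CPM in FFD and 46.8 to 217 CPM in control libraries. That of monocyte-derived macrophages (9 of 10 rose) summed to 213 to 1025 and 75.8 to 297 CPM, and that of cholangiocytes (6 of 9 rose) to 103 to 515 and 96.6 to 266 CPM. Single genes weighed heavily in these sums. Of the cholangiocyte list Spint2, which was not called, had means of 112 CPM in FFD and 105 CPM in control libraries. Of the macrophage list Spp1 reached 729 CPM in FFD library 9. The part of these cell types in the 3 rises was not tested.

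The promoters of the 3 genes that rose are shown because these genes moved in the same direction. Each stretch lies just before the RefSeq transcription start (mouse build GRCm38.p6, the assembly also known as mm10), is written 5′ to 3′ on the strand of its gene, and stops before the first annotated exon of the gene. Capitals mark the GC box GGGCGG or its reverse complement CCGCCC. The Itga8 stretch is chr2:12301945-12302194 on the minus strand, that of Itga11 is chr9:62677605-62677825 on the plus strand, and that of Itgb5 is chr16:33829415-33829664 on the plus strand.
Itga8: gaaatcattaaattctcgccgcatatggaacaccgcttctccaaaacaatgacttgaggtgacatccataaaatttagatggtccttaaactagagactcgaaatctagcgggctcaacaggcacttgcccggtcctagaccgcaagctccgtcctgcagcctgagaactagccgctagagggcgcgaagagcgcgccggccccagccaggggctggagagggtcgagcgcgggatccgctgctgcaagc
Itga11: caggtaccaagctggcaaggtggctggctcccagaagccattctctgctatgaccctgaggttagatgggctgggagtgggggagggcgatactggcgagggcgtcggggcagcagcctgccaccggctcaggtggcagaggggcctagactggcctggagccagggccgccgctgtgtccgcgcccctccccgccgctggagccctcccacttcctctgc
Itgb5: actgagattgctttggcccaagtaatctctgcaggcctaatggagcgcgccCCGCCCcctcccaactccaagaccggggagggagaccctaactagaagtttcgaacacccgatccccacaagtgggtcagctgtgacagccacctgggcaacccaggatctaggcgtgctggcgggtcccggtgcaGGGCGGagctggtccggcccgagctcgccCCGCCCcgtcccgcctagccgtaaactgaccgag
The 4 motifs searched on both strands of the 250 bases before each start were the AP-1 site TGANTCA, the GC box GGGCGG, the TEAD site GGAATG and the RUNX site TGTGGT, none of which contains another. They were found in 6.87%, 32.9%, 12.6% and 14.2% of 27025 mouse promoters of that length. Itgb5 held 3 GC boxes, Itga5 held 2 and Itgb1 held 1, together with 1 TEAD match in Itgb1. The Itga8 and Itga11 windows held no match to any of the 4. The median promoter had 52.0% G and C and 6 CpG pairs, against 65.2% and 18 in Itgb5, 56.4% and 18 in Itga8, and 68.4% and 12 in Itga11. All 250 bases printed for Itga8 also lie within an exon of E030013I19Rik, an antisense gene on the plus strand.

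Divided by exon length, the levels of the 10 genes lay far apart. In FFD liver Itgb5 came first at 47.4 CPM per kilobase, followed by Itgb1 at 41.0, Itga5 at 5.27, Itga8 at 2.09, Itga1 at 1.51, Itgb3 at 1.005, Itgav at 0.954, Itga11 at 0.155, Itgb6 at 0.121 and Itgb8 at 0.0846. In control liver the order was Itgb1 at 38.3, Itgb5 at 29.1, Itga5 at 4.42, Itga1 at 1.62, Itgav at 1.26, Itgb3 at 0.947, Itga8 at 0.821, Itga11 at 0.0524, Itgb8 at 0.0498 and Itgb6 at 0.0215. Of the neighbours in these orders, the library ranges were apart between Itgb1 and Itga5 and between Itgav and Itga11 in FFD liver, and between Itgb5 and Itga5, Itga5 and Itga1, and Itga8 and Itga11 in control liver. All other neighbours overlapped. Without division by length the FFD means of Itgb5 and Itgb1 were 168 and 167 CPM.

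Itgb5 (chr16:33829665-33949338) encodes the beta subunit of αvβ5, a vitronectin receptor. Its level in the 12 FFD libraries was 90.1 CPM at the lowest, 169 at the median and 222 at the highest, against 87.0, 98.8 and 128 CPM in the 12 control libraries. In words, 11 FFD libraries lay above every control library, and FFD library 3 lay among the controls. The means were 168 ± 32.4 and 103 ± 13.4 CPM (SD, n = 12 each). The rise was 1.63-fold (log2 fold change 0.70, SE 0.10, edgeR adjusted p = 1.28e-05), and a two-sided permutation test on the log2 scale gave p = 1e-05, the smallest that 100000 resamples allow. It was 0.76 on the log2 scale without FFD library 3 and 0.60 (edgeR adjusted p = 0.000654) without FFD libraries 9 to 12, and it was called in both cases. The share of all genes tested in which each FFD library lay above each control library was 1.48%, and Itgb5 was not among them because of FFD library 3.

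Itga8 (chr2:12106632-12301922, minus strand) encodes the alpha subunit of α8β1, a receptor known from mesenchymal cells such as stellate cells. Its level ran from 6.55 CPM over a median of 11.6 to 36.9 CPM in FFD liver and from 2.75 over 5.74 to 11.9 CPM in control liver. All 12 FFD libraries lay above the control median and 6 above the highest control library, number 11, which also had the highest Col1a1 level of the control group (55.0 CPM). The FFD libraries were spread widely: numbers 9 to 12 held 20.1 to 36.9 CPM and the 8 others 6.55 to 12.6 CPM. The means were 15.4 ± 8.67 and 6.05 ± 2.73 CPM (SD, n = 12 each), a rise of 2.53-fold (log2 fold change 1.34, SE 0.27, edgeR adjusted p = 0.000314, permutation p = 8e-05). Without FFD libraries 9 to 12 the log2 fold change was 0.77 and the call was lost (edgeR adjusted p = 0.0132). Itga8 shares 372 exon bases with the antisense gene E030013I19Rik, which held at most 23 counts in a library, and the sources used here do not state whether counting used strand.

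Itga11 (chr9:62677826-62783982) encodes the alpha subunit of the collagen receptor α11β1 and was measured by few reads, with 0 to 29 counts in FFD libraries and 1 to 8 in control libraries. The lowest, median and highest levels were 0, 0.907 and 1.28 CPM under the FFD and 0.0566, 0.301 and 0.407 CPM under the control diet. Above every control library lay 10 FFD libraries, while FFD library 3 held 0 counts, which allows up to 3 counts or about 0.161 CPM. The rise was 2.97-fold (0.798 ± 0.372 against 0.269 ± 0.119 CPM, SD, n = 12 each), with a log2 fold change of 1.57, an SE of 0.37 and an edgeR adjusted p of 0.00143 (permutation p = 0.00041). The call was lost with limma-voom (adjusted p = 0.045) and without FFD libraries 9 to 12 (log2 fold change 1.22, edgeR adjusted p = 0.0348).

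**Figure D1:**
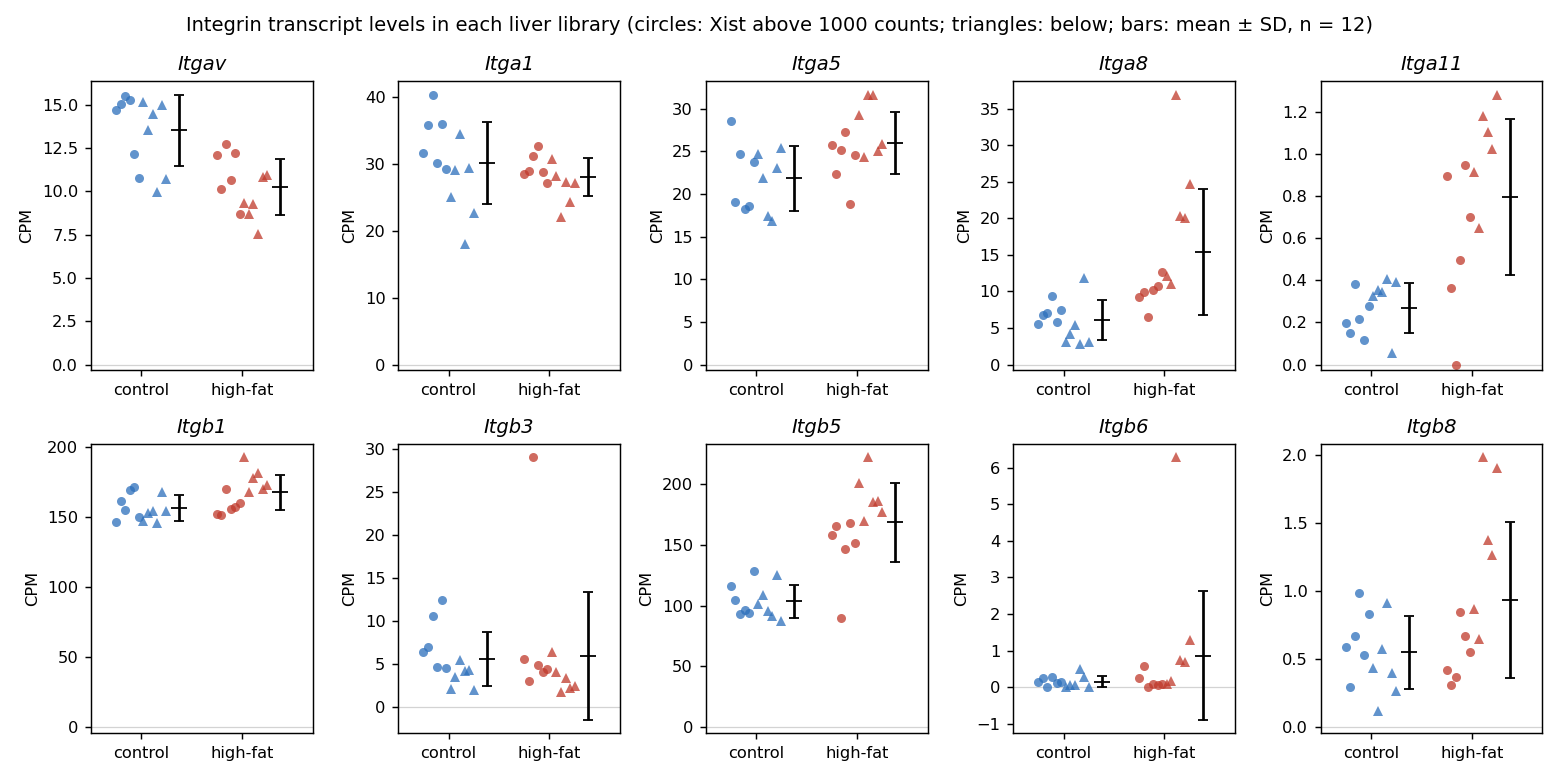
Level of each of the 10 integrin genes in CPM (y axis, 1 panel a gene with its own scale) in the 12 control and 12 high-fat diet (FFD) libraries. Circles are Xist-high and triangles Xist-low libraries, each row of points runs from number 1 to 12, and bars give the mean ± SD; 11 of 12 FFD points of Itgb5 lie above all control points, while the single high points of Itgb3 (29.0 CPM) and Itgb6 (6.30 CPM) are FFD libraries 3 and 9.

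Itgav (chr2:83724397-83806916), the shared alpha chain of the αv receptors, was not called in either direction. It ran from 7.53 over 10.4 to 12.7 CPM under the FFD and from 9.98 over 14.6 to 15.5 CPM under the control diet. All 12 FFD libraries lay below the control median, but the ranges overlapped. The means were 10.3 ± 1.61 and 13.5 ± 2.06 CPM (SD, n = 12 each). The log2 fold change was −0.40 (SE 0.10, edgeR adjusted p = 0.00162, permutation p = 0.00049), so that it passed the threshold on p and not that on fold change and was not called. With library totals in place of TMM the log2 fold change was −0.13 (adjusted p = 0.363). That scaling moved the median log2 fold change of all genes tested from −0.03 to 0.26, and against this median Itgav was about as far below as before. The list of 10 hepatocyte markers, of which 8 fell, Hnf4a was not called and Trf was at 0.22 on the log2 scale, summed to 57551 to 143845 CPM in FFD and 104652 to 164519 CPM in control libraries, and its part in the result was not tested.

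Itgb3 (chr11:104608000-104670476) forms the platelet fibrinogen receptor with Itga2b as well as αvβ3. It ran from 1.73 over 4.01 to 29.0 CPM under the FFD and from 1.97 over 4.61 to 12.4 CPM under the control diet, so that the groups overlapped almost in full. Its log2 fold change of 0.08 (SE 0.39, edgeR adjusted p = 0.893) rested on FFD library 3 and was −0.55 without it (adjusted p = 0.109). In that library Gp9, a platelet surface protein, was at 2.24 CPM and at most 0.317 CPM in all others. Ppbp (5.86 against at most 0.752 CPM), Gp1bb (0.746 against 0.271) and Treml1 (1.07 against 0.301) were also far higher there. Pf4 (4.96 against 3.89 CPM) and Itga2b (7.57 against 6.72) were little higher, and Gp1ba was lower (0.746 against 0.939). Outside the platelet list, Marco (118 against at most 30.5 CPM) and Vwf (47.8 against 21.9) were highest in that library as well. The platelet list as a whole ran from 4.41 to 23.3 CPM in FFD and from 3.40 to 7.53 CPM in control libraries, with 1 of 7 tested genes (Pf4) called higher, and its part in the Itgb3 level was not tested.

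Itgb6 and Itgb8 encode the partners of Itgav best known for activating TGF-beta, Itgb6 mainly in epithelial cells. Per kilobase their mean levels were the lowest of the 10 genes in both diets, with ranges that overlapped with that of Itga11 or of each other. Itgb6 (chr2:60598292-60722643, minus strand) had 0 to 149 counts in FFD and 0 to 5 in control libraries, or 0, 0.213 and 6.30 CPM against 0, 0.128 and 0.509 CPM at the lowest, median and highest. At or below 3 counts lay 6 FFD and 8 control libraries. The log2 fold change of 2.55 (SE 0.77) just missed the threshold (edgeR adjusted p = 0.0107), and DESeq2 called it at 2.58 (adjusted p = 0.00313). It rested on FFD library 9, without which it was 1.36 (edgeR adjusted p = 0.09), and it was 0.22 without FFD libraries 9 to 12. FFD library 9 was also the library with Krt19, a bile duct keratin, at 48.1 CPM and at most 7.57 CPM elsewhere. The cholangiocyte list ran from 103 to 515 CPM in FFD and from 96.6 to 266 CPM in control libraries. Its member Spint2, which was not called, held up to 181 and 243 CPM of these sums. The part of the list in the Itgb6 level was not tested.

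Itgb8 (chr12:119158022-119238802, minus strand) ran from 0.311 over 0.758 to 1.99 CPM under the FFD and from 0.118 over 0.552 to 0.984 CPM under the control diet. The ranges overlapped, and the 4 FFD libraries above all controls were again numbers 9 to 12. The log2 fold change was 0.78 (SE 0.33, edgeR adjusted p = 0.0603, permutation p = 0.0494) and 0.11 without these 4 libraries. In FFD libraries 9 to 12 each of Itga8, Itga11, Itgb6 and Itgb8 was higher than in each of the 8 other FFD libraries: 1.02 to 1.28 CPM against at most 0.948 for Itga11, 0.683 to 6.30 against at most 0.570 for Itgb6, and 1.27 to 1.99 against at most 0.869 for Itgb8. Over all genes tested 3.6% separated in this way, and since the 4 libraries were picked out by these integrin levels nothing is read from the count. For the 6 other genes the ranges of these 4 and the 8 others overlapped.

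Among the 5 beta subunits that can pair with Itgav, the makeup of the transcripts per kilobase was different in FFD liver. Itgb5 made up 52.5% ± 5.70 of their sum in FFD and 42.5% ± 3.54 in control libraries (SD, n = 12 each), and it was above 50% in 11 FFD and 0 control libraries. Itgb1 took 46.1% ± 4.11 and 56.0% ± 3.28. In FFD library 3 the Itgb5 share was 35.3% and the Itgb3 share 6.84%, against means of 1.23% and 1.38% for Itgb3 in the FFD and control groups. Itgb6 and Itgb8 took at most 0.825% and 0.185% in any library. Without division by length, Itgb5 took 48.7% ± 5.79 in FFD and 38.8% ± 3.49 in control libraries, and Itgb1 took 49.0% and 58.8%. The place of Itgb5 against 50% thus depends on that division, while its higher mean share in FFD libraries does not. The ratio of Itgb5 to Itgav, in CPM without regard to length, was 17.0 ± 4.94 in FFD and 7.81 ± 1.60 in control libraries, with ranges of 7.08 to 24.6 and 6.02 to 11.9. Over the 8 FFD libraries other than 9 to 12 the Itgb5 share per kilobase was 51.1% ± 6.55 and the ratio 15.3 ± 4.47 (SD, n = 8). These shares are of transcripts, not of receptors, and since they sum to 100% a rise of 1 lowers the others.

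**Figure D2:**
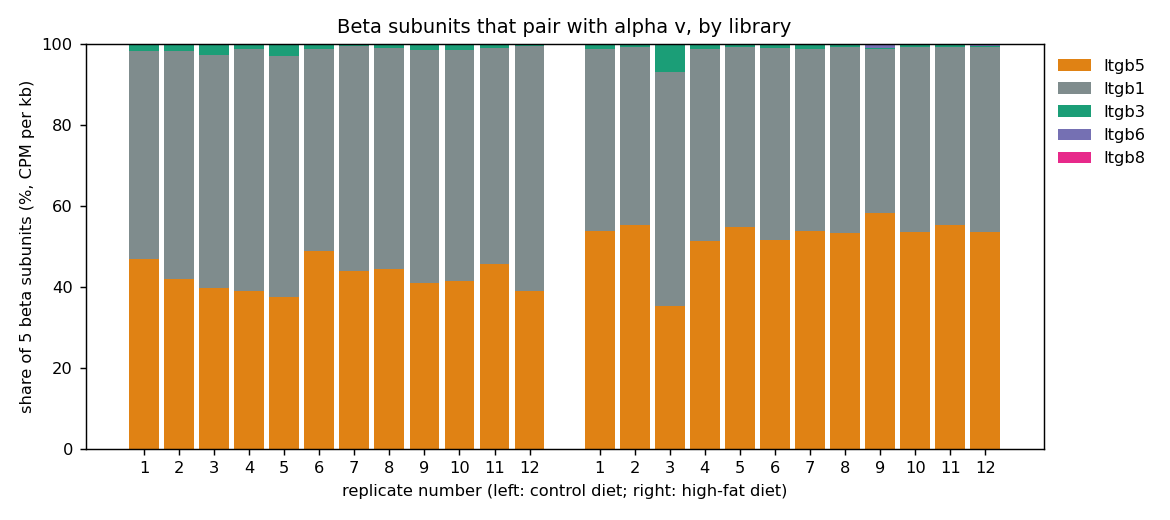
Share of each beta subunit (y axis, percent of the summed CPM per kilobase of Itgb1, Itgb3, Itgb5, Itgb6 and Itgb8) in each of the 24 libraries, 1 bar a library, with control libraries on the left and FFD libraries on the right. Itgb5 is above 50% in each FFD library but number 3, where it is 35.3% and Itgb3 is 6.84%, and below 50% in each control library.

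The common partner Itgb1 (chr8:128685654-128733200) and the subunits Itga5 and Itga1 were not called. Itgb1 ran from 152 over 169 to 192 CPM under the FFD and from 146 over 154 to 171 CPM under the control diet, with a log2 fold change of 0.10 (SE 0.06, edgeR adjusted p = 0.163). Its replicates were the tightest of the 10 genes, at 167 ± 12.7 and 156 ± 9.04 CPM (SD, n = 12 each), and the ranges overlapped. Itga5 (chr15:103344286-103366763, minus strand), which completes the main fibronectin receptor, ran from 18.9 over 25.5 to 31.6 CPM and from 16.8 over 22.4 to 28.6 CPM. Here 10 of 12 FFD libraries lay above the control median, with a log2 fold change of 0.25 (SE 0.09, edgeR adjusted p = 0.0334, permutation p = 0.0136). Itga1 (chr13:114953096-115101964, minus strand), a receptor subunit for collagen IV and collagen I, ran from 22.1 over 28.4 to 32.7 CPM and from 18.1 over 29.8 to 40.4 CPM. Its log2 fold change was −0.10 (SE 0.10, edgeR adjusted p = 0.411) and 0.16 with library totals. The genes Itga1 and Itgav share 685 and 634 exon bases with the genes Gm49395 and Gm13684, which held at most 42 and 2 counts in a library.

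The diet difference was also taken within each set of libraries. Among the 12 Xist-high libraries 0 of the 10 genes were called, where 2.91% of all genes tested were called higher. At an unadjusted p under 0.05 edgeR had 3 genes higher (Itgb5, Itga8 and Itga11) and Itgav lower, against 15.4% and 12.8% of all genes, and at an adjusted p of at most 0.05 lay Itga8 (log2 fold change 0.50, adjusted p = 0.0433) and Itgb5 (0.48, adjusted p = 0.0301). Among the 12 Xist-low libraries, where 14.3% of all genes were called higher, Itga8 rose by a log2 fold change of 2.05 (edgeR adjusted p = 0.000718), Itga11 by 1.74 (0.00178), Itgb8 by 1.64 (0.00622) and Itgb5 by 0.92 (2.29e-05). Not called but at an edgeR adjusted p of at most 0.05 lay Itgb6 (3.53, adjusted p = 0.0161), Itga5 (0.39, adjusted p = 0.0245), Itgb1 and Itgav (−0.47, adjusted p = 0.0154). At an unadjusted p under 0.05 edgeR had 7 genes higher and 1 lower in that set, against 24.5% and 22.0% of all genes. When FFD libraries 9 to 12 were left out, which leaves 2 FFD libraries in the set, only Itgb5 was called there (0.89, edgeR adjusted p = 0.00878), and Itga8 was at 1.21, Itga11 at 1.35 and Itgb8 at 0.82 (adjusted p = 0.133, 0.166 and 0.438). Of the 18122 genes tested in that fit 648 were called higher and 114 lower. In the whole Xist-low set all 6 FFD libraries lay above all 6 control libraries for Itgb5, Itga11 and Itgb1 (exact two-sided permutation test, p = 0.00216 each, the smallest that 6 against 6 allows). Over all genes tested the share that separated in this way in the Xist-low set was 12.6%. For Itgb1 this went with 177 ± 9.03 against 154 ± 7.85 CPM (SD, n = 6 each) and a log2 fold change of 0.22 (edgeR adjusted p = 0.0492).

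The interaction of diet and set was tested for every gene, and 6.18% of all genes had a larger diet difference in the Xist-low set at an edgeR adjusted p of at most 0.05. Of the 10 integrin genes this held for Itga8, whose difference was larger by 1.53 on the log2 scale (SE 0.42, adjusted p = 0.0206), and Itgb8, larger by 1.92 (SE 0.54, adjusted p = 0.0226). For Itgb5 the value was 0.43 (adjusted p = 0.137) and for Itga11 0.42 (adjusted p = 0.562). With library totals in place of TMM the interaction also passed for Itgb5 (0.78, adjusted p = 0.0173) and Itgb1 (0.56, adjusted p = 0.00447). The values for Itga8 and Itgb8 were 1.30 and 1.79 without FFD library 9 (adjusted p = 0.0424 and 0.0408). Without FFD libraries 9 to 12 they were 0.69 and 1.10 (adjusted p = 0.562 and 0.503).

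**Figure D3:**
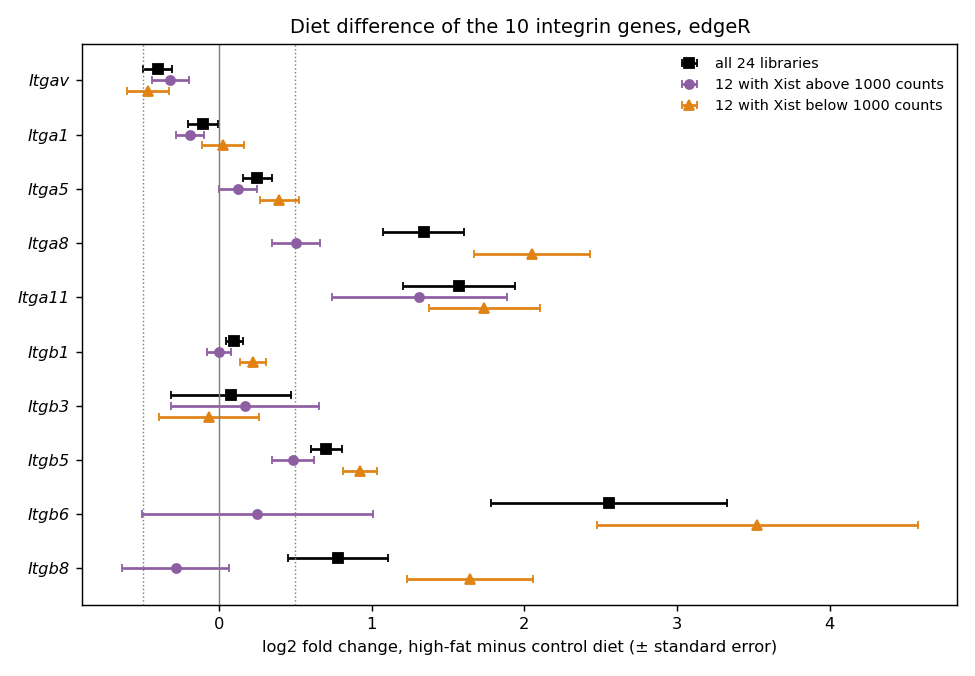
Log2 fold change, FFD minus control (x axis, ± standard error, edgeR), of the 10 integrin genes (y axis) over all 24 libraries (squares), the 12 Xist-high libraries (circles) and the 12 Xist-low libraries (triangles). Dotted lines mark the fold change threshold of 0.5; the interaction with the set passed its threshold for Itga8 and Itgb8, with 0.50 and 2.05 for Itga8 and −0.28 and 1.64 for Itgb8.

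Of 9 leukocyte and platelet integrin genes tested 4 rose and 0 fell (median log2 fold change 0.72), led by Itgax (log2 fold change 2.98, edgeR adjusted p = 6.94e-08) and Itgb2, the beta chain of all leukocyte β2 integrins (1.72, adjusted p = 5.02e-06), with Itgam at 1.65 and Itgal at 0.85. The platelet chain Itga2b was at −0.01 and Itgb7 at 0.72 (adjusted p = 0.0274). Of 7 other subunits 4 rose and 0 fell (median 0.77): the epithelial laminin and collagen receptor subunits Itga2 (2.05), Itga6 (1.28) and Itgb4 (1.66), and Itga9 (0.77), a receptor subunit for tenascin C and osteopontin. Itga2 was near the limit of detection, at 0.667 ± 0.655 CPM under the FFD and 0.164 ± 0.130 CPM under the control diet (SD, n = 12 each). Its highest level was 2.49 CPM in FFD library 9. Itga3 (0.55, adjusted p = 0.0383) and Itga10 (−0.40, adjusted p = 0.165) were not called. Without FFD libraries 9 to 12, 4 leukocyte integrin genes and 2 of the other subunits were called, and Itga2 was at 1.15 and Itgb4 at 0.68 (edgeR adjusted p = 0.0856 and 0.11). Over all genes tested 1403 were called higher in that fit. The 10 genes described here had a median of 0.48 against −0.03 over all genes tested.

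Of 31 matrix ligands of these receptors 20 rose and 3 fell, with a median log2 fold change of 1.22. Those that rose included the collagen chains Col1a1 (3.12, from 13.6 ± 14.2 to 119 ± 68.2 CPM, SD, n = 12 each), Col1a2 (2.41), Col3a1 (2.60), Col4a1 (1.55) and Col4a2 (1.43), osteopontin (Spp1, 2.62) and tenascin C (Tnc, 2.04). The 3 that fell were the fibrinogen chains Fga (−0.56), Fgb (−0.65) and Fgg (−0.64), which hepatocytes secrete. Fibronectin (Fn1, −0.52, edgeR adjusted p = 0.0122) and vitronectin (Vtn, −0.40, adjusted p = 0.00309), the ligands of α5β1 and αvβ5 that hepatocytes also secrete, were not called. Nephronectin (Npnt), the ligand of α8β1, had 0.766 ± 0.516 CPM against 0.359 ± 0.118 CPM (SD, n = 12 each) and missed the threshold (log2 fold change 1.09, adjusted p = 0.0188). The 3 falls were not called without FFD libraries 9 to 12 or with library totals. Without these 4 libraries Col1a1 was at 2.53 and Spp1 at 1.67, both still called higher.

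Of 17 genes of latent TGF-beta and its signalling 8 rose and 0 fell (median 0.68). They included the 3 ligands Tgfb1 (1.29), Tgfb2 (2.49) and Tgfb3 (1.85), of which the last 2 were far higher in FFD library 9 than elsewhere: Tgfb2 at 12.4 CPM against at most 3.36 CPM, and Tgfb3 at 21.8 CPM against at most 6.23 CPM. Without that library they were at 1.72 and 1.35 and called, and without FFD libraries 9 to 12 at 0.81 (edgeR adjusted p = 0.0824, not called) and 0.94 (adjusted p = 0.004). Also higher were the latent binding protein Ltbp1 (1.07) and the anchor Nrros (1.04), with which latent TGF-beta is held on macrophages. The anchor Lrrc32 was at 0.57 (edgeR adjusted p = 0.011) and not called. Of 36 genes that act inside the cell in integrin activation and focal adhesions 11 rose and 0 fell, with a median of 0.18. Parvg (2.07), Fermt3 (1.42) and Apbb1ip (1.55), which act with integrins in blood cells, Flna (1.27), which crosslinks actin, and the kinase Src (1.42) were among those that rose. The widely expressed activators Tln1 (0.33), Fermt2 (−0.35) and the kinase Ilk (−0.05) were not called.

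**Figure D4:**
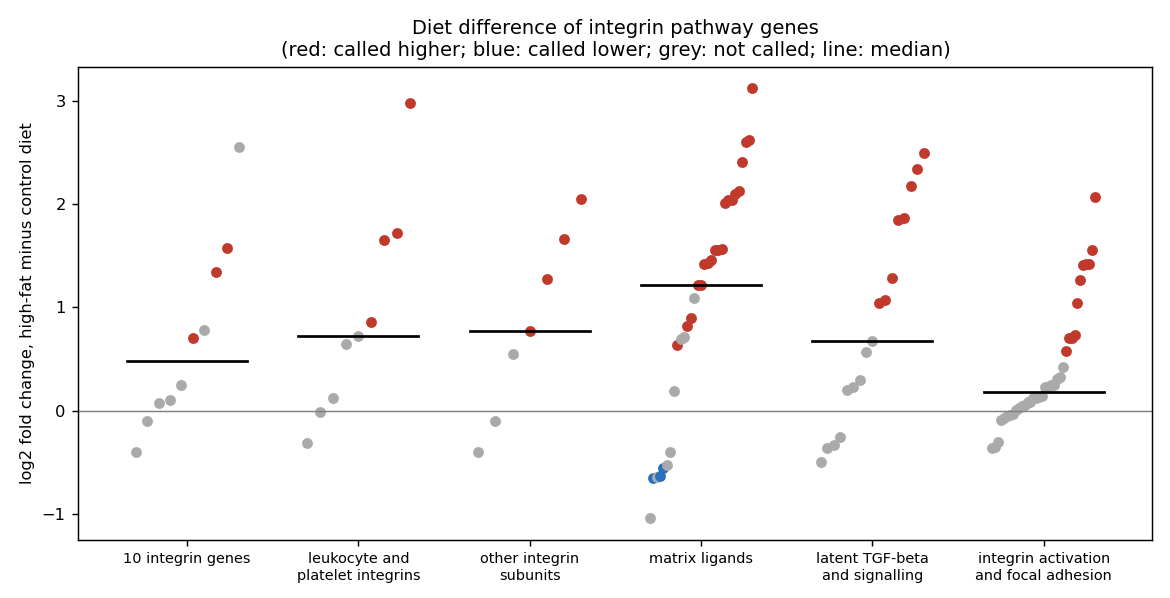
Log2 fold change, FFD minus control (y axis, edgeR), of each tested gene in the 10 integrin genes and 5 related lists (x axis), 1 point a gene in rising order. Red points were called higher, blue lower and grey not called, and lines mark the medians, which run from 0.18 for integrin activation and focal adhesion to 1.22 for matrix ligands.

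Within diet and set, the levels of the 10 genes were set against Col1a1, the main fibrillar collagen chain, and Krt19 over the 24 libraries. For this, log2(CPM + 1) was centred on the mean of each diet and set, and p-values were adjusted over the 20 relations and both coefficients. Itga8 followed Krt19 (Pearson r = 0.76, permutation adjusted p = 0.0032, Spearman rho = 0.67, adjusted p = 0.016) and kept an r of 0.71 without the 2 libraries farthest in Itga8, control 11 and FFD 9. With Col1a1 it had r = 0.65 (permutation adjusted p = 0.0397) and rho = 0.53 (adjusted p = 0.0701), and r was 0.47 without the same 2 libraries. Itgb5 and Col1a1 had r = 0.55 (permutation adjusted p = 0.0397) and rho = 0.47 (adjusted p = 0.143), with r = 0.45 without control library 11 and FFD library 3. Itga11, the third called gene, had r = 0.094 and rho = 0.35 with Col1a1 (permutation adjusted p = 0.816 and 0.325). For Itgb6 and Krt19 r was 0.84 but rho 0.34 (permutation adjusted p = 0.0701 and 0.353), and r was 0.39 without FFD libraries 7 and 9, so that the relation rests on those libraries. Over the 20 libraries other than FFD 9 to 12 no relation passed an adjusted p of 0.05, with r at 0.73 for Itga8 and Krt19, 0.72 for Itga8 and Col1a1, 0.57 for Itgb5 and Col1a1 (permutation adjusted p = 0.102, 0.207 and 0.102) and −0.024 for Itgb6 and Krt19. With control libraries 10 and 11 also left out, r fell to 0.48 for Itga8 and Krt19 and to 0.34 for Itga8 and Col1a1. With control library 11 and FFD library 3 left out instead, it was 0.48 for Itgb5 and Col1a1. The 24 points share the liver sample and its cell makeup, since both genes of a relation were read from the same library.

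**Figure D5:**
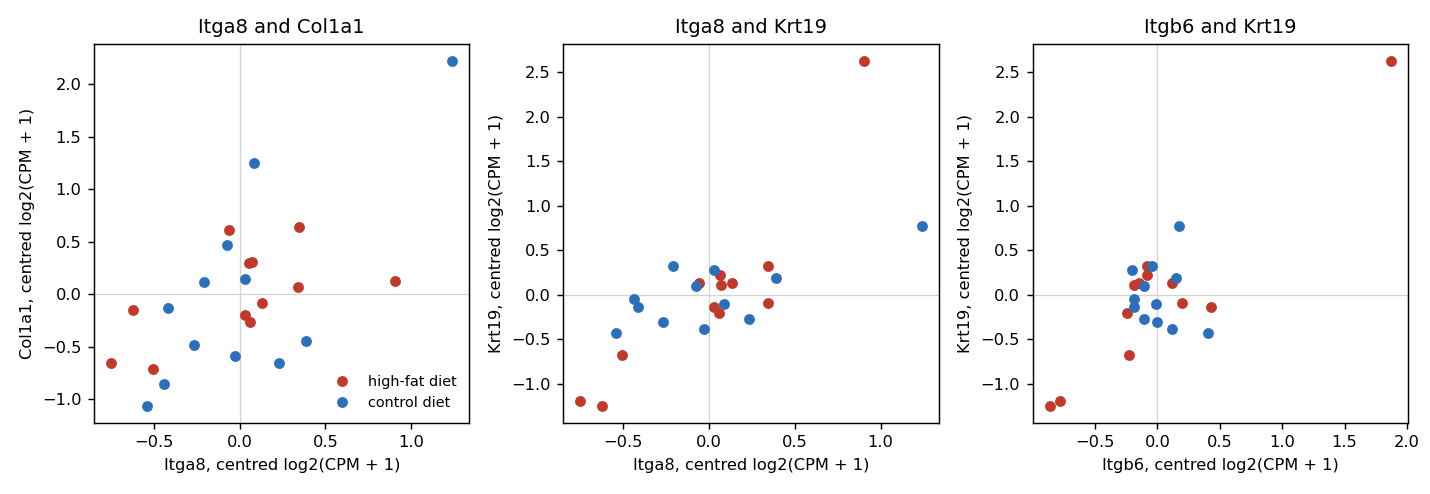
Levels in log2(CPM + 1) centred within diet and set, for Itga8 against Col1a1 (left), Itga8 against Krt19 (middle) and Itgb6 against Krt19 (right), 1 point a library with FFD in red and control in blue. Itga8 and Krt19 have r = 0.76 and keep 0.71 without the 2 libraries farthest in Itga8, while the relation of Itgb6 and Krt19 (r = 0.84) hangs on a single high FFD library.

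Each called integrin gene was also set against 13916 genes with a mean of at least 10 counts, by Pearson's r across the 24 libraries. Again log2(CPM + 1) was centred on the mean of each diet and set. The genes most like Itga8 were Plat (r = 0.91), Slc5a1 (0.90) and Kcne3 (0.88). For Itgb5 they were Gdf3 (0.85), Nfkb2 (0.83) and Itpkb (0.82), and for Itga11 Gna14 (0.73), Id2 (0.70) and Hamp (0.70). Spearman's rho was 0.84 to 0.89 for the genes of Itga8 and 0.64 to 0.78 for those of Itgb5. For those of Itga11, which was measured by few reads, it was only 0.62, 0.46 and 0.35. These r and rho are descriptions without a test, and the centring takes out the mean difference between the diets and between the sets.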

How the data were processed

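RNA-seq of whole liver from 12 FFD and 12 control diet mice was used. The table the authors deposited holds raw counts, as whole numbers, for Ensembl genes. The submitters' processing notes name STAR 2.7.3a and mm10, and the annotation and strand setting of the count step are not given in the sources used here. Symbols, coordinates and exon lengths came from GENCODE M21, which held 51745 of the 56205 IDs; the other 4460 carried 0.0723% of the counts. Promoters came from RefSeq (GRCm38.p6), whose table matched 9 of the 10 genes (not Itgb3).

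From the deposited counts, edgeR 4.0.16 in R 4.3.3 gave log2 fold changes, standard errors and Benjamini-Hochberg adjusted p-values for the 17913 genes counted at least 1 time in 12 or more libraries (TMM scaling, diet as the only term, all 24 libraries). TMM factors were 0.994 to 1.34 in FFD and 0.679 to 1.01 in control libraries. Single genes were also tested by a two-sided permutation test of log2(CPM + 1) with 100000 resamples, exact for 6 against 6. The fits were tested on simulated data. The labels number the libraries and the design counts mice, so each library was taken as 1 mouse, and p-values measure the spread between these libraries, which may be in part technical. No 2 libraries of a diet agree within sampling noise (lowest chi-square per degree of freedom 9.48). Depth limits Itga11, Itgb6 and Itgb8, where 3 counts are about 0.161 CPM, which covers counting error only.

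The 10 genes, the gene lists and the rule for named genes were chosen with earlier results of these data known. That rule covered the 10 genes, up to 6 called genes of each list with the smallest adjusted p, the main ligands and partners, the markers, and the 3 genes most like each called gene. Replicate numbers are shared between the diets, but nothing ties them to a litter or day. Alternatives were DESeq2 1.42.0, limma-voom of limma 3.58.1, library totals, DESeq2 size factors, 3 other filters on low counts, 2 other thresholds, a replicate block, the Xist set or a surrogate variable of sva 3.50.0 as covariates, fits within each Xist set, a pseudocount of 0.1, and each library left out in turn. Leaving out FFD libraries 3 and 9, or 9 to 12, was added after seeing the data.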

Additional observations from a re-analysis of the deposited data

Results flagged for a closer look

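The diet difference of Itga8 differed between the sets of libraries, being larger by 1.53 on the log2 scale in the Xist-low set by the interaction test of edgeR. For Itgb8 it was larger by 1.92 by the same test. Itga8 rose from 5.06 ± 3.49 to 20.9 ± 9.44 CPM in Xist-low and from 7.03 ± 1.36 to 9.90 ± 1.99 CPM in Xist-high libraries, of which the second passed an adjusted p of 0.05 and not 0.01. Itgb8 had 0.450 ± 0.276 and 1.34 ± 0.536 CPM in control and FFD libraries of the Xist-low set, and 0.650 ± 0.240 and 0.529 ± 0.202 CPM in the Xist-high set (SD, n = 6 each). FFD libraries 9 to 12 are 4 of the 6 Xist-low FFD libraries, and without them the difference between the sets was 0.69 for Itga8 and 1.10 for Itgb8 (edgeR adjusted p = 0.562 and 0.503).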

How the results depend on the processing

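Leaving out single libraries gave 3 to 4 integrin genes called higher and 0 lower, and 2188 to 2468 higher and 700 to 995 lower over all genes; for Itgb3 the log2 fold change ran from −0.55 to 0.25 and for Itgb6 from 1.36 to 2.79. With library totals 5 integrin genes were higher (Itga5 at 0.55 and Itgb6 at 2.997 were added), Itga1 turned to 0.16, all genes gave 3827 higher and 226 lower, 17 adhesion genes were higher, 0 ligands were lower, and the difference between the sets passed its threshold for Itgb1 (0.56) and Itgb5 (0.78) and was 0.18 for Itgav and 0.079 for Itgb3. Xist-high libraries alone gave 0 integrin genes (Itga8 0.50, Itga11 1.31, Itgb5 0.48, Itgb1 −0.000634, Itgb8 −0.28), 525 higher and 162 lower genes, 2 leukocyte integrins, 0 other subunits, 5 TGF-beta and 3 adhesion genes higher and 0 ligands lower. Xist-low libraries alone gave 1.64 for Itgb8, 0.025 for Itga1, −0.066 for Itgb3, 1430 lower genes, 5 lower ligands and 1 lower adhesion gene. Without FFD libraries 9 to 12, 1 integrin gene was higher (Itga8 0.77, Itga11 1.22), 1403 genes were higher and 336 lower, 2 other subunits were higher and 0 ligands lower, and the set difference was 0.69 for Itga8, 1.10 for Itgb8, 0.39 for Itgb3 and −0.30 for Itgb6. Without FFD libraries 3 and 9 Itgb3 was −0.47. DESeq2 gave Itgb6 2.58 and 5 lower ligands, and limma-voom gave Itga11 1.29 and Itgb3 −0.26. At an adjusted p of 0.05 without a fold change threshold 5 integrin genes were higher and 1 lower, and 3709 and 3388 of all genes; with a log2 fold change over 1, 216 genes were lower, and with at least 10 counts in every library 1226 were higher. The correlation of Itga1 and Krt19 turned to 0.060 without FFD library 9 and to 0.25 without FFD libraries 9 to 12, and that of Itgb6 and Krt19 to −0.024 without the latter. Same-numbered libraries correlated by −0.09 to 0.54 (11 of 12 pairs over 0.1, and 2 FFD libraries correlated best with their own number), so the numbers were not taken as pairs; with a replicate block Itga11 was 1.46 (adjusted p = 0.0134) and Itgb3 −0.19, and the number of integrin genes called higher was 2. The causes were not tested. Itga11 and Itgb6 under both stricter filters, and Itgb8 under that of at least 10 counts in every library, were dropped and could not be fitted.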

Other observations

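Of the 16 other integrin genes tested, 7 had a larger diet difference in the Xist-low than in the Xist-high libraries by the interaction test of edgeR at an adjusted p of at most 0.05. They were Itgb2 (larger by 1.71 on the log2 scale, adjusted p = 0.000321), Itgal (1.37, adjusted p = 0.00384), Itga9 (0.90, adjusted p = 0.00581), Itgb7 (1.47, adjusted p = 0.00889), Itga4 (1.09, adjusted p = 0.0108), Itgb4 (2.11, adjusted p = 0.0467) and Itgax (1.36, adjusted p = 0.0487). Over all genes tested the share was 6.18%. FFD libraries 9 to 12 are 4 of the 6 Xist-low FFD libraries, and without them Itgb2 (1.87, adjusted p = 0.00268), Itgal (1.71, adjusted p = 0.00384) and Itga9 (1.04, adjusted p = 0.0338) passed, 3 of the 7. Of these 7 genes 5 are leukocyte integrins, and the same interaction was larger for 4 of 9 T cell markers (Cd8a 3.62, adjusted p = 0.00795), 3 of 8 resident macrophage markers (Adgre1 2.02, adjusted p = 0.000947, and Cd5l 1.42, adjusted p = 0.00783, with C6 smaller) and 5 of 10 monocyte-derived macrophage markers, 1 of which is Itgax. Of these markers the 3 of resident macrophages also passed without FFD libraries 9 to 12. In that fit 0 T cell markers (Cd8a 3.28, edgeR adjusted p = 0.109) and 0 monocyte-derived macrophage markers passed. Lists other than those of immune cells also held larger interactions over all 24 libraries. These were 2 of 9 cholangiocyte, 2 of 10 activated and 2 of 10 quiescent stellate cell, and 1 of 10 endothelial markers. Among platelet and hepatocyte markers there were 0. Of the pathway lists 7 of 31 matrix ligands, 3 of 17 TGF-beta and 7 of 36 adhesion genes passed. The part of these cell types in the integrin values was not tested.

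Control library 11 had the highest Col1a1 (55.0 CPM) and Spp1 (117 CPM) of the control group. Of the integrin genes it had the highest control level of Itga8 (11.9 CPM) and the lowest control level of Itga11 (0.0566 CPM), and its Itgb5 level of 125 CPM was exceeded only by control library 6 at 128 CPM.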
